A study of Mus musculus with 216 samples.

Results

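The regions described here are H3K9me3 domains of mouse embryonic stem cells that overlap an exon of a protein-coding transcript but stay clear of every protein-coding transcript start by more than 1 kb. They were taken from the authors' deposited division of H3K9me3 domains into 4 decay classes named fast, intermediate, slow and residual. Domains on chromosomes 1 to 7, 9, 10 and 12 to 19 were used, and 1634 of the 34389 domains there met the rule, out of 43039 in the whole table. They are called exonic domains below. They covered 7.19 Mb, or 5.24% of all domain bases on these chromosomes, and touched 1491 protein-coding genes.

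All samples came from 1 line, dTKO, whose labelled genotype is Suv39h1fl/fl; Suv39h2-/-; Setdb1fl/fl. Auxin (100 µg/ml) was given with dTAG13 (0.5 µM), a pair of degrader compounds, and 0 h is the baseline. ChIP-seq was done at 0, 1, 3, 12, 24 and 48 h for H3K9me3 and HP1b, each with an input, in 216 runs. These were 4 kinds of 54 runs each, from 3 biological repeats whose libraries were each sequenced in 3 runs, with 1.5 µg of Drosophila chromatin added to 20 µg of chromatin as a spike-in. The question was how fast the mark leaves different parts of the genome. Each domain has 1 class for the whole time course, and the table holds no measurement of a single sample. Depth is therefore unknown, loss of the enzymes was not measured here, no value below has an error between cultures, and no test over samples could be made.

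H3K9me3 is laid down by methyltransferases of the SUV39H and SETDB1 families and is bound by HP1 proteins. It is best known from repeats and transposable elements, where it keeps them silent. It also lies over some unique genes, including clustered zinc finger genes, imprinted loci and genes of lineages that a cell has not entered. Exons are short islands of mostly unique sequence within introns that are rich in transposable elements, so a domain on an exon may hold gene sequence, repeat sequence or both.

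The sequences below show what lay under these domains, as coding stretches of genes from all 4 classes. The first set shows starts of coding exons with the intron bases before them, where the domain covered both. Capitals mark coding bases. Residual exonic domains held Otx2 (chr14:48659197-48659346, minus strand), a homeobox factor of the forebrain, and Tbx1 (chr16:18582327-18582476, minus strand), a T-box factor of the pharyngeal arches. They also held Dsp (chr13:38194676-38194825, plus strand), which encodes the desmosome protein desmoplakin, and Setdb1 (chr3:95327707-95327856, minus strand), the H3K9 methyltransferase gene that is floxed in this line. Shh (chr5:28458474-28458623, minus strand), a morphogen, stood in a fast domain and Agrn (chr4:156172293-156172442, minus strand), agrin of the neuromuscular junction, in a slow one. Coordinates are on mm10, and the letters were read from the GRCm38 genome sequence. The stretches differed widely in base composition. Tbx1 was 77.3% GC with 24 CpG dinucleotides in 150 bases, Shh 66.0% with 15, Agrn 56.7% with 4, Otx2 49.3% with 3, Dsp 49.3% with 2 and Setdb1 44.0% with 0.
Otx2: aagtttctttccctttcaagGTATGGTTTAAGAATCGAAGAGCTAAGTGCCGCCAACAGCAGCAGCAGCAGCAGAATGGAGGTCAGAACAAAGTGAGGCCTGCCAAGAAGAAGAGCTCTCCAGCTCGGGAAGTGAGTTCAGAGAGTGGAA
Tbx1: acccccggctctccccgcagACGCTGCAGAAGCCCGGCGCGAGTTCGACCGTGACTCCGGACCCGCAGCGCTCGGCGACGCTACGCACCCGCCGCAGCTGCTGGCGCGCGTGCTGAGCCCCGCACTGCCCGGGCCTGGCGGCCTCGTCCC
Dsp: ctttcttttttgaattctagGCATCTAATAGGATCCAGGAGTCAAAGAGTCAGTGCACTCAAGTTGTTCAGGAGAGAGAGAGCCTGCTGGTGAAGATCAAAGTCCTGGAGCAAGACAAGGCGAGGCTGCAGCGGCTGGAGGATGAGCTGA
Setdb1: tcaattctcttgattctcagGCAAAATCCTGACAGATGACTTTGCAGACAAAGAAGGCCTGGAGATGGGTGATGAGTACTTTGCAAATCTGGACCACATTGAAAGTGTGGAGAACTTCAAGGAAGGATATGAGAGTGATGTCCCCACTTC
Shh: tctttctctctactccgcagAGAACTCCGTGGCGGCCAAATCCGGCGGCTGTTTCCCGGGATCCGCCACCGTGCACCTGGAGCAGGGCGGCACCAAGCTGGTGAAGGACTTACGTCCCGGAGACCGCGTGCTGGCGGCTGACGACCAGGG
Agrn: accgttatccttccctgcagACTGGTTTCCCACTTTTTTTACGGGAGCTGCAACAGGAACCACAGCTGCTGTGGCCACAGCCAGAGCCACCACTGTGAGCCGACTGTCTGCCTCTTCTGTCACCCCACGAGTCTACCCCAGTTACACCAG

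The second set shows that related coding sequences stood in different classes. It comes from the last exons of C2H2 zinc finger genes, which encode DNA-binding repressors with tandem fingers. Capitals mark the linker between 2 fingers, CANACNGGNGANAANCC, on the strand of the gene. The counts by window and by domain below searched both strands. Zfp980 (chr4:145701507-145701656) stood in a residual domain, Zfp600 (chr4:146195568-146195717) and Zfp992 (chr4:146466595-146466744) in slow domains, and Zfp386 (chr12:116059852-116060001) in an intermediate domain, all on the plus strand. Zfp329 (chr7:12810843-12810992, minus strand) stood in a fast domain.
Zfp980: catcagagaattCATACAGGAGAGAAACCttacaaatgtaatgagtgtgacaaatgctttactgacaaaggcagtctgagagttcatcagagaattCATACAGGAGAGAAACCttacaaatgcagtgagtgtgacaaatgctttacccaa
Zfp600: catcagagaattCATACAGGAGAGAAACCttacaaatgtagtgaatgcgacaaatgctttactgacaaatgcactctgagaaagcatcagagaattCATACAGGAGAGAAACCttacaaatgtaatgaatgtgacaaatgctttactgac
Zfp992: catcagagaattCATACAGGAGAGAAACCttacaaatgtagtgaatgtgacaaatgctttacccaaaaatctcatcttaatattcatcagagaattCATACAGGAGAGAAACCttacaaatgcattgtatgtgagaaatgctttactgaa
Zfp386: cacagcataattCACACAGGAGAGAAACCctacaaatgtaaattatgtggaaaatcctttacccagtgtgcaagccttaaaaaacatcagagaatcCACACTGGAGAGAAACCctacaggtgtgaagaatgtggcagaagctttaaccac
Zfp329: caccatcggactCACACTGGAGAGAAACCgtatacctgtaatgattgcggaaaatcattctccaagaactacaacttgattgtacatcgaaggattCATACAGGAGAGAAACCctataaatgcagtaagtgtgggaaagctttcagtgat
Each stretch was chosen where linkers were densest in the covered coding exon and was set to begin shortly before a linker. The stretches were thus lined up on the linker before bases were counted, and the counts do not describe whole genes. Base by base, the residual Zfp980 stretch shared 136 of 150 bases with slow Zfp600 and 130 with slow Zfp992. Those slow stretches shared 132 with each other. With Zfp386 the Zfp980 stretch shared 106 bases and with Zfp329 103. The linker was in 14.9% of the 300-bp windows of exonic domains on C2H2 zinc finger genes, in 1.56% of the windows of all exonic domains, in 0.245% of the windows of all domains and in 0.0351% of the windows of the 17 autosomes. By class, 0.417% of fast, 1.79% of intermediate, 1.30% of slow and 1.62% of residual windows of exonic domains held it. Counted by domain, it was in 1 of 65 fast, 58 of 1118 intermediate, 25 of 317 slow and 6 of 134 residual ones. The fast value rests on the Zfp329 domain alone, with 3 windows.

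Most exonic domains were intermediate, as were most domains of the table, and the residual share was 3.54 times that of domains in introns. With intronic domains weighted to the exonic mix of repeat masking and distance to a start, the residual shares were 8.20% on exons and 5.91% in introns. Of the 1634 exonic domains, 1118 were intermediate (68.4%, exact 95% interval 66.1 to 70.7), where 76.7% of all 34389 domains were. Another 317 were slow (19.4%, 17.5 to 21.4), against 18.1% of all domains, and 65 were fast (3.98%, 3.08 to 5.04), against 2.93% of all domains. The residual class held 134 exonic domains (8.20%, 6.92 to 9.64), against 2.25% of all domains. These intervals are Clopper-Pearson intervals and cover counting error over domains only. By covered length, 35.7% of exonic domain bases were slow, 54.1% intermediate, 7.20% residual and 3.00% fast.

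The nearest set in annotation was the 5533 domains inside protein-coding genes that touch neither an exon nor a start window, called intronic below. Their residual share was 2.31%, so exonic domains exceeded them by 5.89 percentage points (95% Newcombe interval 4.58 to 7.36), and by more than 0 on 17 of 17 chromosomes. The residual share of exonic domains averaged 8.65 ± 3.73% over the 17 chromosomes, against 2.27 ± 1.15% for intronic domains (SD over chromosomes). It was highest on chromosome 12 (10 of 57 domains, 17.5%) and lowest on chromosome 17 (3 of 85, 3.53%). The slow share was 2.94 points higher on exons than in introns (0.837 to 5.14), on 13 of 17 chromosomes, but with intronic domains weighted to the exonic mix of widths it was -1.93 points (-4.16 to 0.304). The intermediate share was 9.38 points lower (-11.9 to -6.91 for exonic minus intronic), on 16 of 17. The fast share differed by 0.562 points (-0.426 to 1.71), an interval that includes 0. Domains at promoters, within 1 kb of a start, were residual in 142 of 969 cases (14.7%), and exonic domains differed from them by -6.45 points (-9.12 to -3.92), lower on 13 of 17 chromosomes. Among the 26253 domains outside protein-coding transcripts 1.41% were residual.

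**Figure D1:**
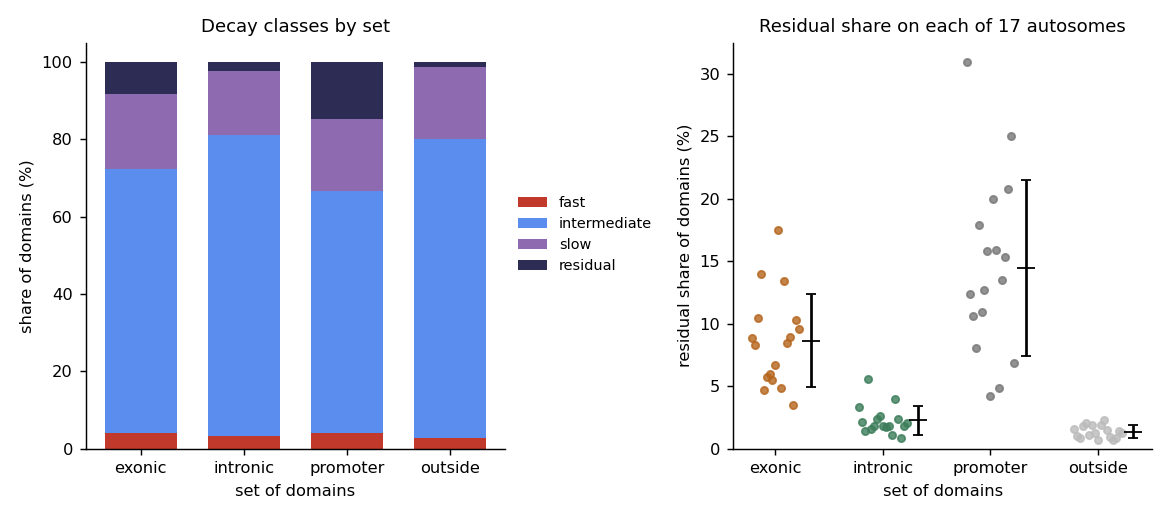
Left, the share of domains (%) in each decay class for exonic, intronic and promoter domains and for domains outside protein-coding transcripts. Right, the residual share (%) on each of the 17 autosomes, 1 point per chromosome, with the mean and SD as a bar. The exonic points average 8.65% and lie above the intronic ones on every chromosome, and the promoter points spread the most widely.

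Distance to a transcript start went with the residual class even though the start windows themselves were left out. Of the exonic domains whose edge lay 1 to 2 kb from the nearest start, 33 of 138 were residual (23.9%, 17.1 to 31.9), and at 2 to 5 kb 39 of 247 (15.8%, 11.5 to 20.9). The share was 5.73% at 5 to 20 kb, 3.71% at 20 to 50 kb and 4.90% beyond 50 kb. Of the 134 residual exonic domains, 72 (53.7%) lay within 5 kb of a start, where 20.6% of intermediate, 21.8% of slow and 21.5% of fast ones did. Intronic domains had lower shares that also declined with distance, with 18 of 106 residual at 1 to 2 kb, 6.14% at 2 to 5 kb and 1.38% beyond 50 kb. The slow share of exonic domains had no such order (15.2, 19.4, 20.2, 17.7 and 21.6% over the same 5 distances). At the edge of the rule, the 83 exon-touching domains left out because of a start in the outer part of the 1-kb window were residual in 18 cases (21.7%), next to 23.9% just inside it.

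Repeat content separated the classes in the opposite way for slow and residual domains. Residual exonic domains had a median of 10.0% soft-masked bases, which are bases marked as repeats in the genome sequence (quartiles 5.99 and 17.3). Slow ones had a median of 55.6% (17.5 and 71.0), intermediate ones 24.4% (12.4 and 48.2) and fast ones 18.03% (lower quartile 8.26). The residual median was below the intermediate one on 17 of 17 chromosomes, and the slow median above it on 17 of 17. Residual domains were also the richest in sequence found once in the genome. Their median share of unique 31-mers was 100% and 83 of the 134 were wholly unique (61.9%), against a median of 52.3% in slow domains, where 69 of 317 were (21.8%). The residual median GC content was 50.6%, against 45.5% for intermediate, 44.9% for slow and 49.1% for fast domains. Slow exonic domains were the widest, with a median of 6.3 kb, where fast and residual ones had medians of 2.7 kb and intermediate ones 2.4 kb. Exon bases per domain had medians of 692 in residual, 671 in fast, 391 in slow and 283 in intermediate domains.

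**Figure D2:**
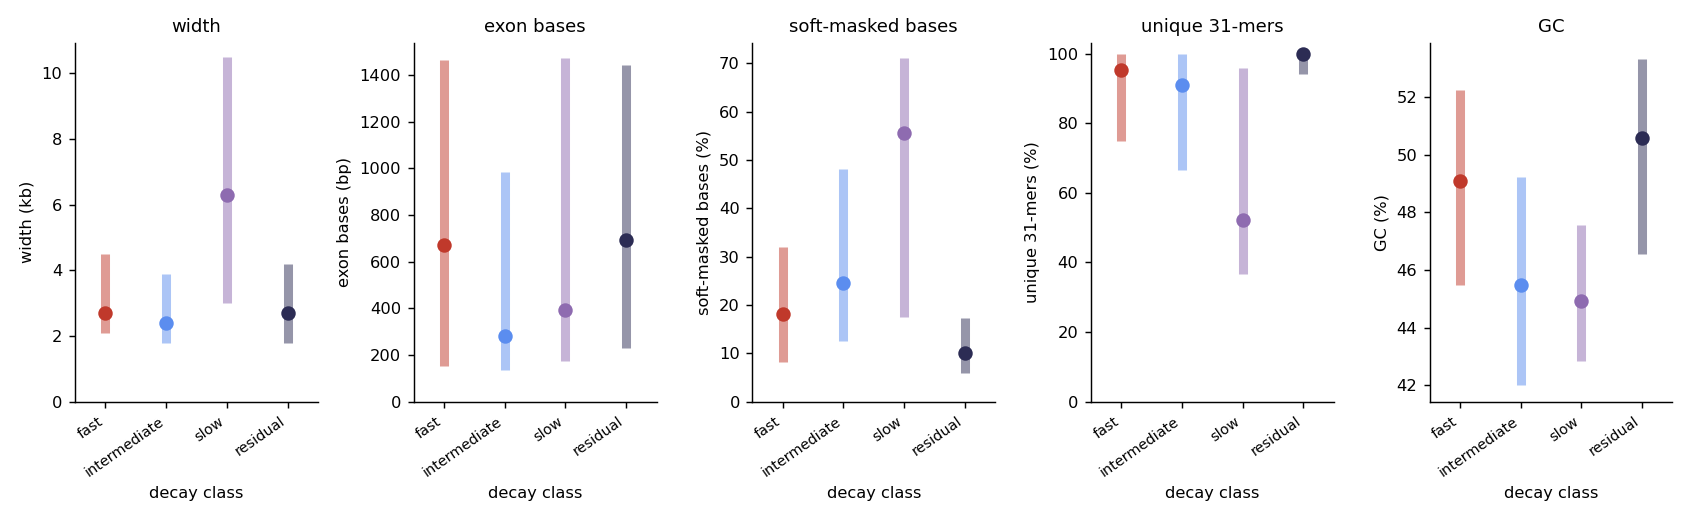
Median (point) and quartiles (bar) of width, exon bases, soft-masked share, share of unique 31-mers and GC content of the exonic domains of each decay class (n = 65 fast, 1118 intermediate, 317 slow and 134 residual). Slow domains stand apart in width, soft-masked share and unique share, and residual and fast domains have the highest GC content.

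Exonic domains as a whole held fewer repeats than intronic ones, with 24.7% against 70.4% soft-masked bases at the median. Within each band of soft-masked share the residual share was still higher on exons, though the intervals overlapped in every band but the first. It was 15.3% (12.7 to 18.2) against 8.97% (7.16 to 11.1) in introns up to 20% masking, 4.66 against 3.14% at 20 to 40%, 2.63 against 1.09% at 40 to 60%, 1.63 against 0.658% at 60 to 80% and 0.980 against 0.425% above 80%. With intronic domains weighted to the exonic mix of these bands, the difference was 3.42 points (1.84 to 5.00). Weighted by distance to a start it was 4.28 points (2.71 to 5.84), by width 5.83 points (4.43 to 7.24), and by masking and distance together, in 4 strata, 2.29 points (0.538 to 4.05). In the stratum with at most 20% masking and a start within 5 kb, 62 of 181 exonic domains were residual (34.3%, 27.4 to 41.7), against 28 of 100 intronic domains (28.0%, 19.5 to 37.9). The slow share went the other way with masking, reaching 43.5% of exonic domains (37.2 to 49.9) against 29.2% of intronic ones (26.5 to 32.1) at 60 to 80% masking. Weighted by masking, the slow difference was 5.54 points (3.32 to 7.77). Reads in repeated sequence can come from other copies, and whether that moved a domain between classes was not tested.

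**Figure D3:**
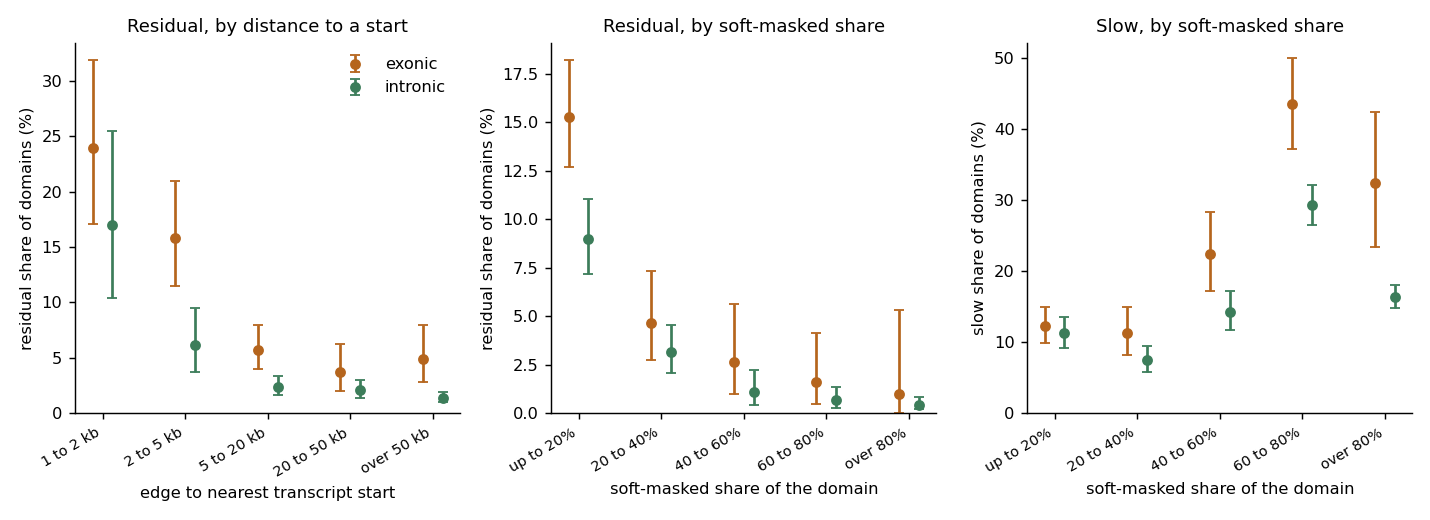
Share of exonic and intronic domains (%) in the residual class by distance to the nearest transcript start (left) and by soft-masked share of the domain (middle), and in the slow class by soft-masked share (right), with exact 95% intervals. The exonic residual share is 23.9% at 1 to 2 kb from a start and 15.3% at up to 20% soft-masked bases, and the slow share is highest, at 43.5%, where 60 to 80% of bases are soft-masked.

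Position within the transcript was read from the exon with the largest overlap. Internal exons took 953 exonic domains, last exons 657, single exons of 1-exon transcripts 17 and first exons 7. Residual domains made up 68 of the internal group (7.14%, 5.58 to 8.96) and 56 of the last-exon group (8.52%, 6.50 to 10.9), whose intervals overlapped. Slow domains made up 17.1% of the internal group (14.8 to 19.6) and 23.1% of the last-exon group (20.0 to 26.6). A first or single exon could enter only where it ran past 1 kb from its start, and all 24 such exons were longer than 1 kb. Among them 4 of 7 first exons and 6 of 17 single exons were residual. All 10 of these domains lay 1.1 to 3.69 kb from a start, where residual shares were high among exonic domains in general. Start windows of 5 kb remove all 10, so shares with such windows cannot tell exon position from start distance. The residual first exons were those of Frem2 (3956 exon bases, chr3:53651701-53655900), an extracellular matrix protein of epithelia, and of Irs1 (1200), an adaptor of the insulin receptor. The others belonged to the adenylyl cyclase gene Adcy5 (235) and the protocadherin gene Pcdhgc4 (1483). The residual single exons included Htr1a (1800 exon bases, chr13:105444901-105446700), a serotonin receptor, Amer2 (1200) and Pou3f1 (155), a POU factor of neural and glial cells, while Mafa entered with only 11 exon bases. The single exon of the adrenergic receptor gene Adra2c, with 1463 exon bases, was fast.

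Among internal exons the residual share was higher where the exon was longer. Residual domains made up 46 of 817 with internal exons under 300 bp (5.63%, 4.15 to 7.44), 10 of 80 with exons from 300 bp to under 1 kb (exact 95% interval 6.16 to 21.8%) and 12 of 56 with exons of 1 kb or more (21.4%, 11.6 to 34.4). Near a start, within 5 kb, 7 of 15 long internal exons and 27 of 162 shorter ones were residual, and farther away 5 of 41 (12.2%) and 29 of 735 (3.95%). Median masking of the domains also fell over the internal length groups, from 26.5% through 12.8% to 8.41%. Length was not separated from masking. Long internal exons in residual domains included the 5506-bp exon 4 of Hivep2, a zinc finger transcription factor, with 3900 exon bases at chr10:14128801-14132700. Others were the 3456-bp exon 2 of the exchange factor gene Arhgef4 and the 2158-bp exon 4 of Tet3, an enzyme that oxidises 5-methylcytosine. Residual shares of last exons did not rise with length, with 13.5% under 300 bp (5 of 37), 9.09% from 300 bp to under 1 kb and 8.02% at 1 kb or more. Median masking fell there too, from 50.7% through 33.8% to 26.7%. Where coding sequence was the main part of the exon bases, 107 of 1207 domains were residual (8.86%, 7.32 to 10.6). Where the 3' untranslated part was, 27 of 403 were residual (6.70%, 4.46 to 9.60), and where the 5' untranslated part was, 0 of 24 (up to 14.2%). Domains with at most 5% exon bases were residual in 5.34% of cases and those with 5 to 10% in 4.75%, against 14.1% at 25 to 50% and 11.8% above 50% exon bases. Their median masking was 54.4, 30.4, 17.2 and 12.1% in the same order, and exon share was not separated from masking.

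**Figure D4:**
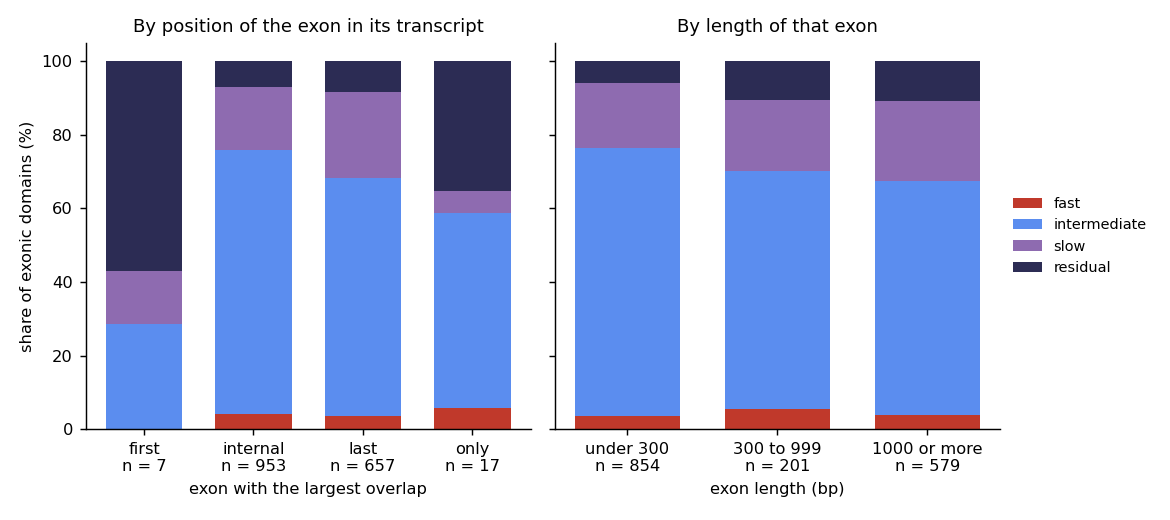
Share of exonic domains (%) in each decay class by the position of the exon with the largest overlap (left) and by the length of that exon (right), with the number of domains under each bar. First and single exons are few, 7 and 17, and have the largest residual shares, with every residual one 1.1 to 3.69 kb from a start. Internal and last exons have intermediate shares of 71.6% and 64.7% and slow shares of 17.1% and 23.1%.

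Genes were also ranked by the exon bases that lay in domains of each class, summed over their domains. In the residual class the first were Dsp (5260 exon bases, 6.3 kb domain, chr13:38191501-38197800), Nes (4851, chr3:87975601-87981600), the intermediate filament nestin of neural progenitors, Eppk1 (4200, chr15:76102501-76106700), a plakin of epithelia, Frem2 and Hivep2. All but Eppk1 had at least 96.7% unique 31-mers, and Eppk1 had 23.8%. The fast class was led by Ank2 (5700 exon bases, chr3:126941701-126947400), ankyrin-B of the membrane skeleton, and Zfhx4 (4800, chr3:5398801-5403600), a zinc finger homeobox factor. Behind them came Hrnr (3600), hornerin of the skin barrier, with 0% unique 31-mers, Iqsec3 (3084) of inhibitory synapses and Lrrn2 (2920). In the slow class D10Wsu102e came first with 115505 exon bases in a domain of 121.5 kb, mostly through 1 annotated last exon of 122802 bp. Only 359 of the bases in the domain were coding. Behind it were Agrn (6863 exon bases in a 48.3-kb domain), Zc3hav1l (6004), Ttn (5553 over 2 domains) and Zfp992 (4497). The intermediate class was led by Ttn (13451 over 3 domains), the muscle spring titin, Plec (8567), the cytoskeletal linker plectin, the vomeronasal receptor gene Vmn1r43 (8100), the sialic acid enzyme gene Cmah (7230) and the splicing factor gene Srrm2 (6079).

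Grouped by gene function, developmental transcription factors had the largest residual share of the lists with at least 20 exonic domains. Of the 26 exonic domains on 25 of the 195 genes in that list, 15 were residual (57.7%, 36.9 to 76.6), 7 intermediate, 4 slow and 0 fast. The residual domains lay on the T-box genes T, Tbx1, Tbx3 and Tbx5, which pattern mesoderm, heart and limb, on the paired-box genes Pax2, Pax6 and Pax7 of kidney, eye and muscle, and on Gata4, Gata5 and Gata6 of endoderm and heart. Otx2, Emx2, Nr2e1 and Pou3f1 of the nervous system and Prdm12 of sensory neurons made up the rest. Their widths ran from 1.5 to 6.3 kb, their unique share from 93.3 to 100%, and all lay 1.36 to 6.21 kb from a transcript start. Within 5 kb of a start 13 of the 16 exonic domains of this list were residual, and beyond it 2 of 10. Slow domains included those on Pax3 (17.1 kb), a paired-box factor of neural crest and muscle, Irx4 and Foxi3. Intermediate domains lay on Prdm11, Prdm15, Prdm16, Tbx15, Foxp2 and Ebf3, and the 7 had a median of 100% unique 31-mers too. The list was drawn up with earlier results on these genes known, and its direction is not independent evidence. It goes by gene symbol and is not complete. Other transcription factor genes outside it also had residual exonic domains. Those on Lmx1b, Tshz1 and Zic4 lay 60.9, 70.8 and 10.7 kb from a start, and those on Dmbx1, Osr1 and Mafa 2.16 to 2.73 kb. Others outside the list were not residual, such as Zfhx4 with a fast domain and Gbx2, Bach2, Npas2 and Rfx2 with intermediate ones. The residual share among transcription factor genes outside the list was not counted.

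Developmental signalling genes were divided among the classes. Of 27 exonic domains, 5 were residual (18.5%, 6.3 to 38.1), 3 slow, 15 intermediate and 4 fast. The residual ones lay on the ligand genes Wnt5a, Wnt7a, Fgf3 and Sema6c and on the semaphorin receptor gene Plxna4. The fast ones lay on Shh (2051 exon bases, 6.6 kb), Wnt7b, the guidance ligand gene Sema5b (2280 exon bases, 6.3 kb) and the receptor gene Ephb6. Fast and residual domains of this list both had low masking, with medians of 10.1% for fast and 7.29% for residual domains. Imprinted genes, which are expressed from 1 parental copy, had 5 residual domains of 14 (35.7%, 12.8 to 64.9). They lay on Kcnq1 (39.0 and 17.7 kb), a potassium channel gene of heart and inner ear, on the placental factor gene Ascl2, on Ano1 and on the exchange factor gene Rasgrf1 (2400 exon bases). All but the one on Rasgrf1 lay in 1 stretch of chromosome 7 (chr7:142964701-144646200), so the share rests largely on that neighbourhood. The retrotransposon-derived imprinted genes Rtl1 (5488 exon bases) and Peg10 (2400) were intermediate. Ion channel genes had 7 residual domains of 48 (14.6%, 6.07 to 27.8), among them both on Kcnq1 and those on Kcnj8, Chrnb2, Grid1 and Kcng2.

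**Figure D5:**
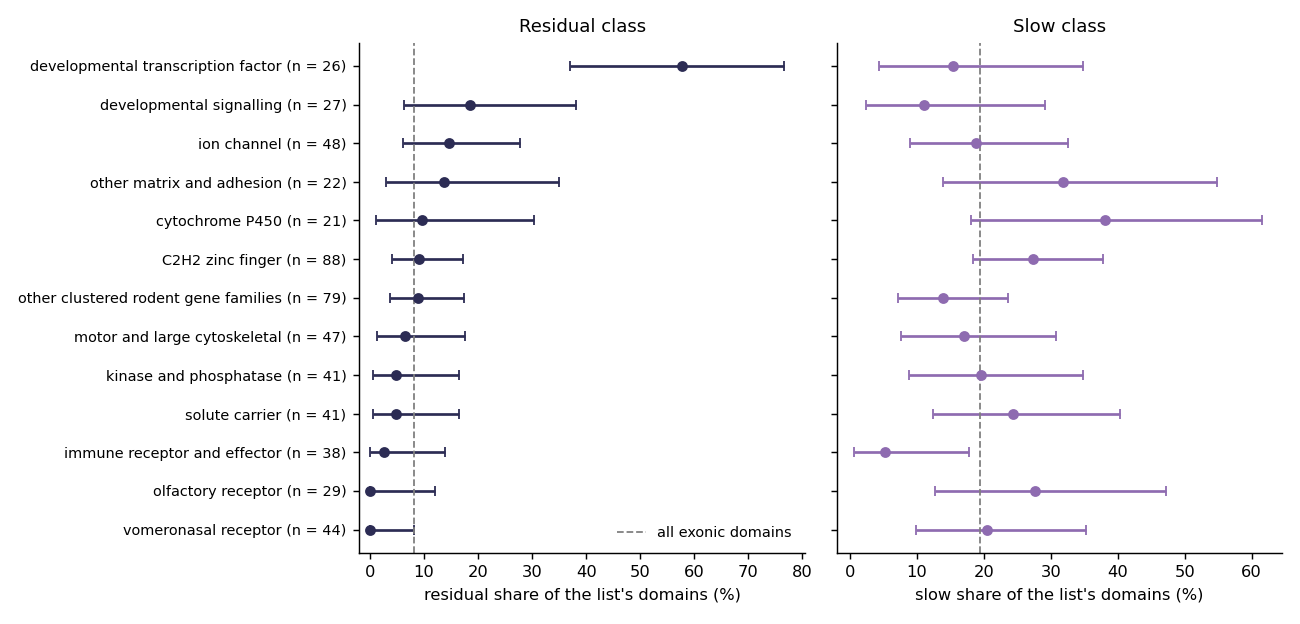
Residual (left) and slow (right) share (%) of the exonic domains on each gene list with at least 20 of them, with exact 95% intervals and the share of all exonic domains as a dashed line. Only the interval of developmental transcription factor genes lies wholly above the residual line at 8.20%. That of vomeronasal receptor genes ends just below it at 8.04%, but the list leaves out a residual domain on Vmn2r-ps159. The interval of immune genes lies wholly below the slow line at 19.4%.

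Large clustered gene families differed in their classes. C2H2 zinc finger genes had 88 exonic domains, of which 24 were slow (27.3%, 18.3 to 37.8), 53 intermediate, 8 residual (9.09%) and 3 fast. Their slow domains were wide and repeated, with medians of 7.95 kb and 45.7% unique 31-mers, against 2.4 kb and 86.7% for their intermediate domains. Among their domains with at least 50% unique 31-mers, 11 of 60 were slow (18.3%). On genes of no list 13.3% of domains with that unique share were slow. In 1 stretch of chromosome 4 (chr4:144774901-147843600), 11 of 20 exonic domains were slow, including those on Zfp600 (27.0 kb), Zfp992 (15.0 kb) and Zfp933. Inside it, 5 of the 8 exonic domains at chr4:146891701-147587700 were residual, on Gm21411, Rex2, Zfp978, Zfp982 and Zfp985. Only 7.8 to 58.3% of 31-mers were unique in those 5 residual domains and 8.33% in Zfp980. Reads there can come from near-copies in the slow domains next to them, and their part in the class was not tested. Olfactory receptor genes had 29 exonic domains with 8 slow (27.6%) and 0 residual (up to 11.9%). Vomeronasal receptor genes had 44 with 9 slow (20.5%) and 0 residual (up to 8.04%), but that list left out a residual domain on Vmn2r-ps159. Both were rich in repeats, with medians of 71.1% soft-masked bases for olfactory and 77.8% for vomeronasal domains. Within 5 kb of a start lay 26 of the 29 olfactory domains. Of all exonic domains that near with over 20% masking, 10 of 204 were residual (4.90%). Among domains with at least 50% unique 31-mers, 3 of 17 olfactory (17.6%) and 1 of 16 vomeronasal (6.25%) domains were slow. Other clustered rodent gene families had 79 exonic domains, of which 60 were intermediate, 11 slow (13.9%), 7 residual (8.86%) and 1 fast. With at least 50% unique 31-mers 28 of these were left, 27 intermediate and 1 residual (3.57%). This list goes by gene symbol and mixes numbered Gm genes with Sp110 and Sp140, so its shares are not those of a single family. Its residual domains included the one on Gm21411, which also lay in the chromosome 4 stretch above. Cytochrome P450 genes had 8 slow of 21 (38.1%, 18.1 to 61.6), including the liver genes Cyp3a41a, Cyp3a41b and Cyp3a44, which all lie in 1 stretch of chromosome 5. With at least 50% unique 31-mers, 3 of 10 cytochrome P450 domains were slow. Immune receptor and effector genes were mostly intermediate, with 35 of 38, and had 2 slow domains (5.26%, 0.644 to 17.7). Germline genes were intermediate in 10 of 10, an interval of up to 30.8% for each other class. That list goes by gene symbol and is not complete, and Oog1 and Sun5, each with a residual domain, were outside it. The 998 exonic domains on genes of no list were residual in 70 cases (7.01%, 5.51 to 8.78) and slow in 192 (19.2%).

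Residual exonic domains stood next to each other at 3 places where at least 4 lay within 1 Mb of the next. On chromosome 1 all 5 exonic domains at chr1:85080901-85643400 were residual. They lay on Sp110, on Sp140 with 2 domains, on A530032D15Rik and on C130026I21Rik, with 8.33 to 20.0% unique 31-mers. Sp110 and Sp140 encode nuclear body proteins. On chromosome 3 all 4 at chr3:94399801-95339100 were residual, on Lingo4, on Sema6c and on Setdb1 with 2 domains, with 100% unique 31-mers in each. The third place was the zinc finger stretch on chromosome 4. Of all 134 residual exonic domains, 15 had under 50% unique 31-mers, and these included the 5 on chromosome 1, Zfp980, Rex2, Zfp978, Gm21411 and Eppk1.

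Setdb1, which the line carries in floxed form, had 2 residual domains, and the 0.6-kb one was the shortest residual exonic domain. A 0.9-kb domain (chr3:95327101-95328000) covered all 629 bases of coding exon 16 of 22, and a 0.6-kb domain (chr3:95338501-95339100) covered 532 of the 687 bases of exon 13. Both had 100% unique 31-mers and 6.11% and 3.00% soft-masked bases. The 1 domain in an intron of Setdb1 was not residual. The cause was not tested. Tet3, the other chromatin regulator gene with a residual exonic domain, had a 4.5-kb residual domain on internal exon 4 and a 2.4-kb fast domain (1843 exon bases) on its last exon.

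Of 144 genes with at least 2 exonic domains, 82 had a single class, and 76 of these were wholly intermediate, the class of 68.4% of all exonic domains. The adhesion gene Sdk1 had the most, 7, with 6 intermediate and 1 slow. The dynein gene Dnah7a had 6 (4 intermediate, 2 slow) and Filip1 4 (2 intermediate, 2 slow). Ttn had 5, of which 3 were intermediate (1.5, 5.7 and 7.5 kb) and 2 slow (3.0 and 3.6 kb), all with 100% unique 31-mers. Pappa, Setdb1 and Sp140 had 2 residual domains each and no other, and Kcnq1 had 2 residual and 1 intermediate. In genes with a residual exonic domain, 19 of 118 intronic domains were residual too (16.1%), 6 of them in C130026I21Rik. In genes with an intermediate exonic domain 2.39% of 879 intronic domains were residual, with a slow one 0.758% of 264, and with a fast one 5.88% of 51. Domains of 1 gene are not independent of each other.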

How the data were processed

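ChIP-seq of H3K9me3 and HP1b with inputs was collected over 6 times, and the authors reduced it to 1 deposited table of domains on mm10. Each domain carries a decay class in words, and the deposited score column is 0 throughout, so no score was used. Per the submitters' processing notes, Bowtie2 2.3.4.1, SAMtools 1.1, deepTools and bedtools were used. Neither the domain caller nor the class limits are given in the sources used here. Slow and residual domains share 1 display colour in the table, and the classes were taken from its words.

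Domains on 17 autosomes were set against GENCODE vM21 protein-coding transcripts, with a minimum overlap of 1 bp and start windows of 1 kb to either side. GC content, soft-masked share and the share of 31-mers found once, sampled every 100 bp, were computed from the GRCm38 sequence with numba 0.67.0 and numpy 2.4.6 under Python 3.11.15, tables were joined with pandas 2.3.3 and exact intervals came from scipy 1.17.1. Difference intervals were from statsmodels 0.14.6, figures from matplotlib 3.10.9, and the counting steps were tested on simulated data. The table has 0 columns with values per sample, so no test was made and depth is unknown. Intervals of 95% treat domains as independent, which neighbours are not. Chromosomes 8, 11, X and Y were not used here.

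The members and the 26 gene lists were chosen with earlier results of these data known. Genes were named as those with the most exon bases per class, list and exon position and those with the most domains. Other genes, including members of short counts and of runs of neighbouring domains, were named after their values were seen.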

Additional observations from a re-analysis of the deposited data

How the results depend on the processing

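No paired analysis was possible because the table holds no sample values, and leaving out replicates could not be run for the same reason. Of 312 alternative values, 287 stayed within the interval of the reported value, 25 moved and 0 reversed. Only differences between sets could be marked as reversed, and most of the values are shares. Not counted among the 312, weighting introns to the exonic widths turned the slow difference to -1.93 points. Leaving out 1 chromosome in turn gave 170 of the 312, of which 0 moved. Each of these keeps most of the domains, so a move was unlikely and the 0 says little. The ranges were 3.81 to 4.15% fast, 67.6 to 69.8% intermediate, 18.6 to 19.9% slow and 7.71 to 8.55% residual. The residual difference ranged from 5.53 to 6.18 points against introns and from -7.40 to -5.23 against promoters. By position the residual share ranged from 50 to 66.7% for first, 6.86 to 7.49% for internal, 7.63 to 9.30% for last and 30.8 to 40% for single exons. With start windows of 5 kb, the intermediate share was 71.1% and the residual share 4.96%, 3.17 points above introns. The residual share was then 4.38% for internal, 5.94% for last and 0% for single exons. That 0% was fixed in advance, because every residual single exon lay within 5 kb of a start. With at least 50% of the domain in exons, shares were 5.26% fast, 16.1% slow and 11.8% residual, 9.53 points above introns and -2.81 against promoters, with 22.0% residual for internal exons. With the midpoint in an exon they were 5.81% fast, 65.9% intermediate, 15.4% slow and 12.9% residual, 10.6 points above introns and -1.78 against promoters, with 15.3% for internal exons. By covered bases they were 3.00% fast, 54.1% intermediate and 35.7% slow. Among domains with at least 50% unique 31-mers they were 72.4% intermediate and 13.7% slow, and other clustered rodent gene families were residual in 3.57%, against 8.86% of all their exonic domains. The cause of these moves was not tested. Of the alternatives chosen after seeing the data, 1 domain per gene gave 8.86% residual, leaving out 17 domains in runs of residual neighbours 7.42%, and leaving out Setdb1 8.09%. The weighting by masking and start distance together was also chosen then.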
